A study of Bos taurus with 4 samples.

Results

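HBG2 and ALAS2 are a pair of genes of the red blood cell, and they were followed here through subcutaneous fat of cattle. They are 2 of the 36373 UniGene clusters that had a row in the deposited tables, where a cluster is a group of transcript sequences for which 1 sequence stands. HBG2 was cluster Bt.102944 and ALAS2 was cluster Bt.49467, both taken by name, and their reads, their RPKM (reads scaled to the length of the sequence in kilobases and to the counted reads of the library) and the covered share of their sequence were read in every library. The libraries were ATFB, from fetuses of 200 to 250 days, and ATAB, ATAH and ATAS, from adult bulls, heifers and steers (castrated males) of 18 to 24 months by the labels. All animals were Chinese Qinchuan cattle with no treatment named in the labels, and RNA came from fat pooled over 5 animals for each group, so each library is 1 pool and no group had a second library. Differences between 2 libraries therefore had no replicate check, and the levels of HBG2 and ALAS2 are described and not tested. By the study's account, fetuses were taken from cows slaughtered at a local abattoir, and the adult animals came from a livestock company. Source and collection therefore cannot be told apart from stage. The counted reads ranged from 15.3 M in ATFB to 16.1 M in ATAB.

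Hemoglobin carries oxygen and is built from alpha-type and beta-type globin chains, each of which holds a heme group. Red cell precursors make other beta-type chains before birth than after it, and HBG2 encodes a gamma chain, one of the beta-type chains of fetal hemoglobin. ALAS2 encodes the erythroid form of 5-aminolevulinate synthase, which catalyses the first step of heme synthesis, while ALAS1 encodes the form that most other cells use. Young red cells that have lost their nucleus still hold globin and ALAS2 RNA, so that RNA of a tissue that contains blood includes them. In bulk tissue, fewer cells of a type and less RNA per cell cannot be told apart.

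The sequence of HBG2 had 679 bases, of which bases 114 to 551 were annotated as coding, 146 codons with the stop codon. Among the analysed clusters nearest to a beta-type globin, HBG2 had more reads than any other in ATFB, but not in the adult libraries. Its first 300 coding bases are printed with the start codon in capitals.
HBG2: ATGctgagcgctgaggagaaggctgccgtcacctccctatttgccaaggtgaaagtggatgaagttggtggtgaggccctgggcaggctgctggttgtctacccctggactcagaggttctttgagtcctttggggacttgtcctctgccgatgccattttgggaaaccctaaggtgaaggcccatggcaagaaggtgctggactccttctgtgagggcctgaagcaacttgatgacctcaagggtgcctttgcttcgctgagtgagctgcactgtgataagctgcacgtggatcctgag
One unnamed cluster, Bt.23726, was nearest to HBG2 among the clusters with reads, with 86.3% identity over 204 translated residues, and coding bases 91 to 180 of HBG2 are set beside their best ungapped match in it and in HBE2, an embryonic globin. Capitals mark the bases that differ from HBG2, which were 8 of 90 in Bt.23726 and 23 of 90 in HBE2, whose reads were not analysed here.
HBG2: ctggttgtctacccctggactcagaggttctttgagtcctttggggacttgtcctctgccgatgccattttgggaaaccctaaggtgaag
Bt.23726: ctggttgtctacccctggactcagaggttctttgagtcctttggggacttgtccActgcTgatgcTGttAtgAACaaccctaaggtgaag
HBE2: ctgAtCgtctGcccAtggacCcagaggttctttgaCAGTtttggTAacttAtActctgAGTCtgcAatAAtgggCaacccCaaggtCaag
The sequence of ALAS2 had 1961 bases, with bases 54 to 1817 annotated as coding. Its 5′ untranslated region held 1 match to CAGTGN, the loop letters of iron-responsive elements, which is known for ALAS2 as the place where iron regulatory proteins bind. The 28 bases around it are printed with the match in capitals.
ALAS2: tcgttcgtcctCAGTGCagggcaacaga
The 90-base stretch of ALAS2 that came nearest to ALAS1 differed from it at 13 bases, shown in capitals in ALAS1, so no stretch of that length came nearer.
ALAS2: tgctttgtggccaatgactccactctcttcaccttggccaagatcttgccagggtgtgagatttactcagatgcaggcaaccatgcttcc
ALAS1: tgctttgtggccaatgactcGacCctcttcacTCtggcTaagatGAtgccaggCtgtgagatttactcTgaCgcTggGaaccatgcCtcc

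The fetal pool ATFB gave 24526 reads of HBG2, and the adult pools ATAB, ATAH and ATAS gave 8, 16 and 0. As RPKM these were 2365 (95% Poisson interval 2335 to 2395) in ATFB, 0.730 (0.315 to 1.44) in ATAB and 1.51 (0.864 to 2.45) in ATAH. ATAS had no read, and a count of 0 allows up to 3 reads, or 0.284 RPKM. ATFB stood far above all 3 adult libraries, which did not reach 2 RPKM. HBG2 held 0.161% of all counted reads in ATFB and ranked 38 by RPKM among its 31236 clusters with reads, where only 4 of the 5075 clusters taken for a symbol were higher. In ATAB and ATAH it ranked 21917 and 19544. All intervals and limits given here cover the error of counting alone. The reads carried no molecular identifiers, and copies of 1 molecule may count more than once where the authors' removal of redundant reads left them.

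The fetal pool gave 763 reads of ALAS2, and ATAB, ATAH and ATAS gave 1, 1 and 0. Its level was 25.5 RPKM (23.7 to 27.3) in ATFB, 0.0316 (0.000799 to 0.176) in ATAB and 0.0327 (0.000828 to 0.182) in ATAH, and at most 0.0983 in ATAS by the limit of 3 reads. It ranked 3657 among the clusters of ATFB, in the upper part of the list but far under HBG2. Per length, HBG2 was 92.8 times as abundant as ALAS2 in ATFB. The adult libraries differed from each other in ALAS2 by no more than 1 read.

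**Figure D1:**
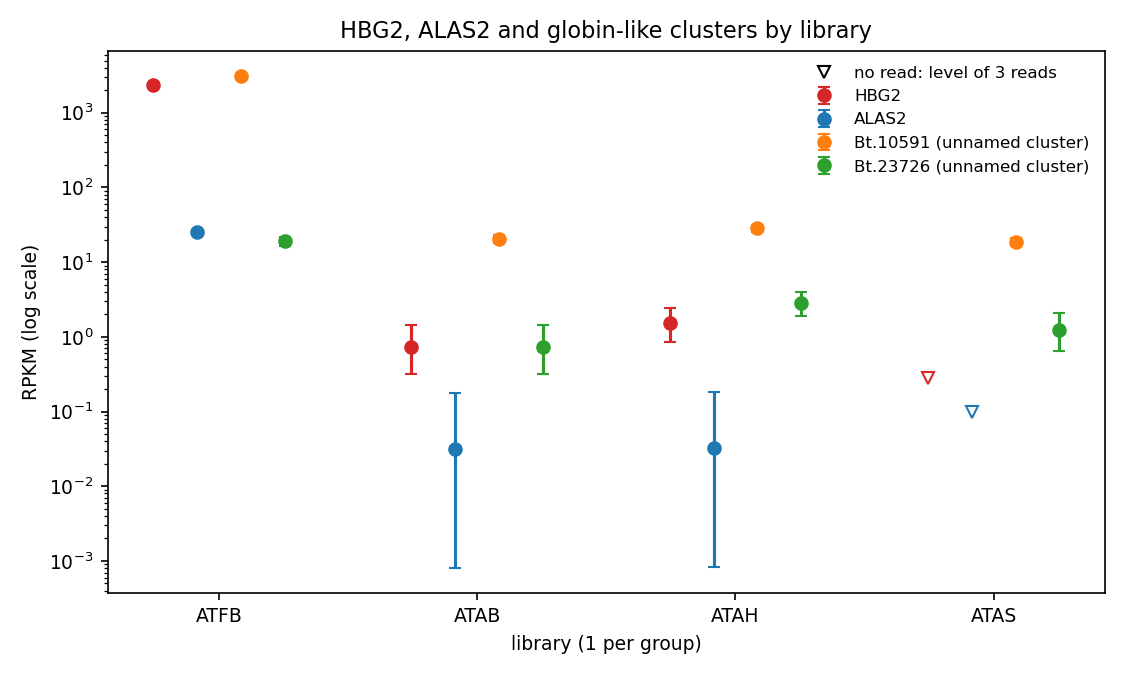
RPKM on a log scale (vertical axis) of HBG2, ALAS2 and the unnamed globin-like clusters Bt.10591 and Bt.23726 in the 4 libraries (horizontal axis, 1 library per group), with bars for the exact 95% Poisson interval of the reads and open triangles at the level of 3 reads where a library had none. HBG2 falls from 2365 RPKM in ATFB to 1.51 RPKM or less in the adult libraries and ALAS2 from 25.5 RPKM to 0.0983 RPKM or less, while Bt.10591 stays at 18.8 RPKM or more.

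Set against each adult library by reads per library total, HBG2 in ATFB was 3241-fold the level of ATAB (95% Clopper-Pearson interval 1645 to 7508) and 1565-fold that of ATAH (963 to 2738). It was at least 8327-fold that of ATAS, a bound that takes the 0 reads of ATAS as 3 and carries no interval. ALAS2 in ATFB was 807-fold the level of ATAB (144 to 31900) and 779-fold that of ATAH (139 to 30800), each against a single read, and at least 259-fold that of ATAS. These comparisons share the ATFB library, so they are not independent of each other. On the log2 scale HBG2 lay at 11.66, 10.61 and at least 13.02 against ATAB, ATAH and ATAS, and ALAS2 at 9.66, 9.61 and at least 8.02. The median log2 ratio over all clusters with a read was 0.12, -0.03 and -0.04 in the same order, and 99% of clusters lay under 3.80, 3.61 and 3.67. With 0 read as 3 throughout, 1 of 34096 clusters had a larger ratio than HBG2 against ATAB and none did of 34589 against ATAH or of 34474 against ATAS. For ALAS2 the numbers of clusters with a larger ratio were 3, 1 and 3.

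**Figure D2:**
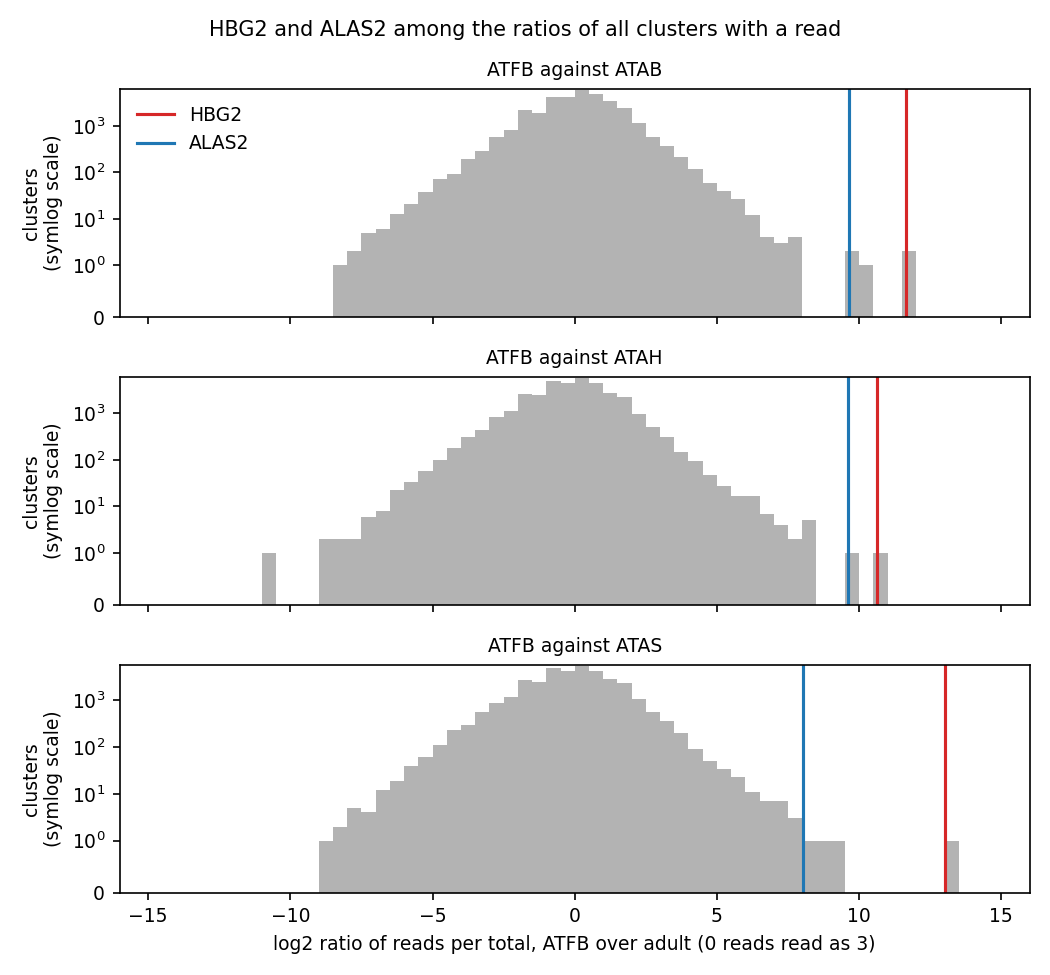
Number of clusters (vertical axis, linear up to 1 and logarithmic above) by log2 ratio of reads per library total of ATFB over each adult library (horizontal axis, bins of 0.5, 0 reads read as 3), with lines at HBG2 and ALAS2. The clusters centre between -0.04 and 0.12, and both lines lie at the far right, HBG2 at 10.61 to 13.02 and ALAS2 at 8.02 to 9.66.

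Among the adult libraries HBG2 had most reads in ATAH, then ATAB, and none in ATAS. ATAH had 2.07 times the level of ATAB, with an interval of 0.837 to 5.59 that includes 1, so these neighbours did not differ beyond counting error. With the 0 reads of ATAS read as 3, ATAB was at least 2.57-fold and ATAH at least 5.32-fold its level, bounds that carry no interval. For ALAS2 the 1, 1 and 0 reads gave no order at this depth.

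The covered share of each sequence was deposited beside its reads. In ATFB, 90.6% of the HBG2 sequence and 97.5% of the ALAS2 sequence was covered, which is 615 of 679 and 1911 of 1961 bases, where as many reads placed anywhere would cover the whole of it. The share does not show how evenly the reads lay. In the adult libraries the few HBG2 reads covered 57.4% in ATAB and 66.6% in ATAH, against 65.4% and 88.0% for as many reads of 90 bases placed anywhere. The single ALAS2 reads of ATAB and ATAH each covered 90 bases, or 4.59%. The authors counted reads that matched once, and of the 590 stretches of 90 bases in HBG2, 149 (25.3%) lay within 2 mismatches of another cluster, either Bt.23726 or Bt.111529, a cluster whose reads were not analysed here. Exact copies made up 55 of the 590 stretches, and 194 (32.9%) lay within 5 mismatches. None of the 1872 such stretches of ALAS2 lay within 2 mismatches of another cluster. Levels of HBG2, a member of a family with near-identical parts, are uncertain for such stretches, and the part of shared stretches in the uncovered 64 bases was not tested.

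**Figure D3:**
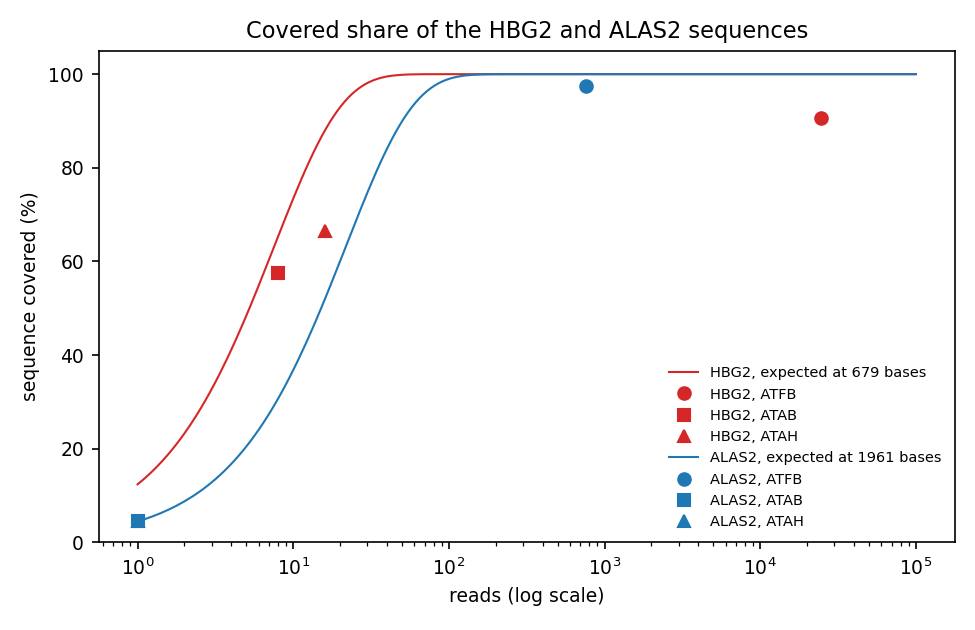
Percent of the sequence covered (vertical axis) against the number of reads (horizontal axis, log scale) for HBG2 and ALAS2 in each library with a read, with curves for reads of 90 bases placed anywhere on the sequence. HBG2 in ATFB sits at 90.6% and ALAS2 in ATFB at 97.5%, both under curves that have reached 100%.

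By translated sequence, 12 clusters were globin-like (at least 30% identity over at least 80 residues to HBG2, HBE2 or HBZ), of which 9 had no symbol. Of the 12, 7 had reads in the tables and the other 5 were not analysed here. HBB and HBA, the adult chains, had no cluster with those symbols among them. The 7 clusters together took 0.432% of the reads of ATFB (0.428 to 0.435%), and 0.0019%, 0.00275% and 0.00172% of those of ATAB, ATAH and ATAS, so the share of these 7 was far higher in the fetal library.

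The most abundant of them was not HBG2 but Bt.10591, an expressed sequence tag without a symbol that was closest to HBZ, an alpha-type chain, with 53.6% identity over 151 residues and 44.1% over 93 residues to HBG2. Bt.10591 had 41148 fetal reads, while ATAB, ATAH and ATAS had 285, 380 and 252, or 3132, 20.5, 28.3 and 18.8 RPKM. Its level in ATFB was 153-fold that of ATAB (136 to 172), 111-fold that of ATAH (99.9 to 123) and 166-fold that of ATAS (147 to 189), each below the interval or bound of HBG2. Per length it was 1.32 times as abundant as HBG2 in ATFB, but 28.1 times in ATAB and 18.8 times in ATAH. Unlike HBG2, it was thus measured with 252 reads or more in every adult library.

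Bt.23726, the near relative of HBG2, had 197 fetal reads, while ATAB, ATAH and ATAS had 8, 30 and 13, or 18.9, 0.727, 2.83 and 1.23 RPKM. Of the reads on HBG2 and Bt.23726 together, HBG2 held 99.2% in ATFB (24526 of 24723, 95% Clopper-Pearson interval 99.1 to 99.3%), 50.0% in ATAB (8 of 16, 24.7 to 75.3%) and 34.8% in ATAH (16 of 46, 21.4 to 50.2%). In ATAS it held 0 of 13, with an upper limit of 24.7% by the same interval. The pair was almost all HBG2 in the fetal library, and the shares of the adult libraries lay below that of ATFB with no overlap of the counting intervals. HBZ, an embryonic alpha-type chain and the only other globin with a symbol and reads, had 14 fetal reads (1.64 RPKM), 3 reads in ATAB (0.332 RPKM) and none in ATAH and ATAS. Bt.62725 had 43 reads in ATFB and 1, 2 and 2 in ATAB, ATAH and ATAS. Bt.5773 and Bt.98120 had at most 1 read in any library.

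The form of the synthase used by most cells was not called between ATFB and any adult library. ALAS1 had 481 fetal reads, while ATAB, ATAH and ATAS had 916, 834 and 814, or 13.8, 24.9, 23.5 and 22.9 RPKM. In ATFB it stood at 0.555 (0.496 to 0.621), 0.589 (0.525 to 0.659) and 0.602 (0.537 to 0.675) times the adult levels, under the 2-fold that a call required, and the 3 adult libraries lay within their counting intervals of each other. Per length, ALAS2 was above ALAS1 in ATFB and below it in every adult library.

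For the other genes of the red cell and of heme, lists were read in the same way. A cluster was called between 2 libraries at an FDR of 0.001 or less by an exact two-sided binomial test of its reads and a ratio of at least 2-fold, which compares the libraries and not the conditions. Against ATAB, 13.3% of all clusters were called higher in ATFB and 9.61% lower. Against ATAH these shares were 10% and 14%, and against ATAS 10.8% and 15.6%. Of the clusters with a read in each comparison, 6.89% were called higher in ATFB in all 3 and 7.62% lower, against which counts of genes called throughout are to be read. Apart from HBG2 and ALAS2, 60 genes of the 8 lists had a named cluster. Of those with a read, 8 of 60 were called higher and 17 lower against ATAB, 7 of 59 higher and 19 lower against ATAH, and 7 of 60 higher and 17 lower against ATAS. The number called higher was near what those shares give for as many clusters, while the number called lower was above it, with no test of either. With ACTB reads as the scaling, 10 list genes in place of 17 were lower against ATAB, and with TMM factors 22. With an assumed coefficient of variation of 0.4 between libraries in edgeR's exact test, none was called higher in any comparison and 2, 1 and 1 were called lower. HBZ was called higher against ATAH and ATAS, at least 4.76- and 4.75-fold, and was 4.93-fold its level in ATAB without a call.

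Among the listed genes of heme synthesis with a named cluster, no enzyme that follows ALAS2 was called higher in ATFB against all 3 adult libraries. For 3 of the 14 listed genes there was no named cluster. Of the 10 other named genes of that list, 2 were called lower against all 3, CPOX and FECH. With ACTB reads as the scaling neither was called against ATAB. The median log2 ratio of the 10 was -0.41, -0.31 and 0.04 against ATAB, ATAH and ATAS. CPOX, coproporphyrinogen oxidase, had 3.88 RPKM in ATFB and 8.69, 11.4 and 13.4 in ATAB, ATAH and ATAS, log2 ratios of -1.16, -1.55 and -1.79. FECH, ferrochelatase, which inserts the iron, had 9.48 RPKM in ATFB and 19.8, 23.0 and 24.5 in the adult libraries, log2 ratios of -1.06, -1.28 and -1.37. ALAD, the enzyme after the synthase, had 75.4 RPKM in ATFB and 88.0, 90.8 and 68.0 in the adult libraries, and was not called. UROS, uroporphyrinogen synthase, had 10.4, 4.93, 6.90 and 7.22 RPKM and was called higher only against ATAB. GLRX5, a mitochondrial glutaredoxin of iron-sulfur cluster assembly, had 64.5, 40.2, 30.3 and 23.3 RPKM and was called higher against ATAH and ATAS. The carriers SLC25A38 at 8.44 to 10.9 RPKM, SLC25A37 (mitoferrin) at 11.5 to 14.6 RPKM and ABCB6 at 10.5 to 19.5 RPKM were called against none of the 3.

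In heme breakdown, HMOX1, heme oxygenase of the inducible form, had 3357 reads in ATFB and 1119, 1021 and 1092 in ATAB, ATAH and ATAS, or 138, 43.5, 41.1 and 44.0 RPKM, and it was called higher against all 3 libraries at 3.17-, 3.36- and 3.13-fold. HP, haptoglobin, which binds free hemoglobin in plasma, was called lower against all 3, with 10.4 RPKM in ATFB and 137, 70.3 and 38.3 in the adult libraries. HMOX2, the constitutive oxygenase, had 18.0, 38.9, 36.6 and 32.0 RPKM and was called lower against ATAB and ATAH. HPX, hemopexin, had 0, 65, 0 and 4 reads in the 4 libraries and was called lower against ATAB only. CD163, the macrophage receptor for haptoglobin and hemoglobin, had 21.1 RPKM in ATFB and 32.7 to 39.4 in the adult libraries, and BLVRA, biliverdin reductase, had 8.17 to 11.6 RPKM, neither called. Of the 6 named genes of breakdown and clearance, 1 was thus higher and 1 lower throughout, with medians of -0.97, -0.63 and -0.61.

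Of the 8 named genes of iron uptake and export, 5 were called lower against all 3 adult libraries and none higher, with median log2 ratios of -1.15, -1.09 and -1.21. With an assumed coefficient of variation of 0.4, TF alone of the 5 was called throughout. The 5 became 4 with TMM factors (without ACO1) and 3 with ACTB scaling (without ACO1 and SLC40A1), and with ACTB scaling SLC11A2, an iron transporter named after its values were seen, was called higher against ATAH. TF, transferrin, had 2.48 RPKM in ATFB and 90.8, 161 and 113 in ATAB, ATAH and ATAS. TFRC, the transferrin receptor through which red cell precursors take up iron, had 71 reads in ATFB and 248, 322 and 231 in the adult libraries, or 1.79, 5.91, 7.95 and 5.72 RPKM. STEAP3, an iron reductase, had 3.57 RPKM against 12.8, 10.7 and 10.8. SLC40A1, the iron exporter ferroportin, had 13.7 RPKM against 31.0, 30.8 and 29.9. ACO1, cytosolic aconitase, which as iron regulatory protein binds elements like the one printed for ALAS2, had 38.3 RPKM against 83.4, 77.1 and 93.8.

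Of the red cell membrane genes, 2 of 14 were called higher against all 3 adult libraries. SLC4A1, band 3, the anion exchanger of the red cell membrane, had 43 reads in ATFB and 0 in each adult library, at least 15.2-, 14.6- and 14.6-fold higher with 0 read as 3 in each. EPB42, protein 4.2, which binds band 3, had 29 reads in ATFB and 0, 2 and 0 in ATAB, ATAH and ATAS. Both were called higher against all 3, and both stayed under 1 RPKM in ATFB, at 0.810 and 0.644. Another 2 of the 14 were called lower throughout. ANK1, an ankyrin, had 9 reads in ATFB and 110, 144 and 124 in the adult libraries, and BPGM, bisphosphoglycerate mutase, had 31 and 79, 96 and 81. With ACTB scaling BPGM was no longer called against all 3. GYPC, glycophorin C, which other cells also make, was the most abundant of the list, with 48.0 RPKM in ATFB and 122, 117 and 84.0 in the adult libraries, and was called lower against ATAB and ATAH. TMOD1, tropomodulin, had 16.9, 5.36, 8.20 and 12.4 RPKM and was called higher against ATAB and ATAH, and CA2, carbonic anhydrase 2, had 3.66, 9.15, 4.85 and 3.51 RPKM and was called lower against ATAB. The median log2 ratio of the 14 was 0.995, 0.34 and 0.28, and their summed level was 75.9 RPKM in ATFB and 110.1 to 145 in the adult libraries. Without GYPC, left out after its values were seen, the order of the sums turned. The other 13 summed to 27.9 RPKM in ATFB and 22.9, 24.6 and 26.1 in ATAB, ATAH and ATAS. TMOD1 held 16.9 of those 27.9 RPKM in ATFB, and 5.36, 8.20 and 12.4 RPKM in ATAB, ATAH and ATAS. The order of the sums thus depends on GYPC and TMOD1 and gives no direction for the list. HEMGN, hemogen, named after its values were seen, had 22 reads in ATFB and 2, 8 and 6 in the adult libraries and was called against ATAB only. ADD2 and XK, also named after their values were seen, had 11 and 8 reads in ATFB. ADD2 had 14, 62 and 43 in the adult libraries and was called lower against ATAH and ATAS, and XK had 24, 31 and 29 and was called lower against ATAH.

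GATA1 and KLF1, the defining factors of the lineage, named after their values were seen, had 3, 3, 6 and 1 reads and 10, 8, 6 and 3 reads in ATFB, ATAB, ATAH and ATAS, and neither was called. LMO2, a partner of GATA1 that endothelium also makes, had 37.9 RPKM in ATFB and 13.7, 16.5 and 18.1 in the adult libraries and was called higher against all 3. TAL1, of the same complex, had 1.21 RPKM against 2.77, 3.28 and 5.60 and was called lower against all 3 (with ACTB scaling not against ATAB), and ZFPM1 had 3.38 to 4.52 RPKM in the 4 libraries. The 8 named genes had medians of 0.03, -0.13 and 0.32. Of 6 named factors of globin switching, 1 was called lower throughout, NR2C2, a nuclear receptor that binds globin promoters, with 2.49 RPKM in ATFB and 6.87, 11.6 and 13.5 in the adult libraries. ZBTB7A, a repressor of gamma-globin in adult red cells, had 12.4 RPKM in ATFB and 18.9, 22.1 and 22.9, and NR2C1 had 5.68 to 7.92 RPKM, neither called. Their medians were 0.17, 0.00 and -0.02. Of 8 genes of reticulocyte maturation, FOXO3 was called lower throughout, with 27 reads against 196, 260 and 390. BNIP3L, which clears mitochondria, had 121 RPKM in ATFB and 75.6 to 91.4 in the adult libraries, and UBAC1 had 61.8 to 77.7 RPKM, neither called. XPO7 had 10.8 RPKM in ATFB and up to 22.6 RPKM in ATAS, where alone it was called lower in ATFB. TRIM10, TRIM58 and UBE2O were named after their values were seen. TRIM10 had 18, 0, 5 and 0 reads and was called higher against ATAB and ATAS, TRIM58 had 4 reads in ATFB and none elsewhere, and UBE2O had 2.09 RPKM in ATFB and 3.82 to 4.98 in the adult libraries and was called lower against ATAH and ATAS. The medians of the 8 were 0.16, -0.01 and 0.07.

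**Figure D4:**
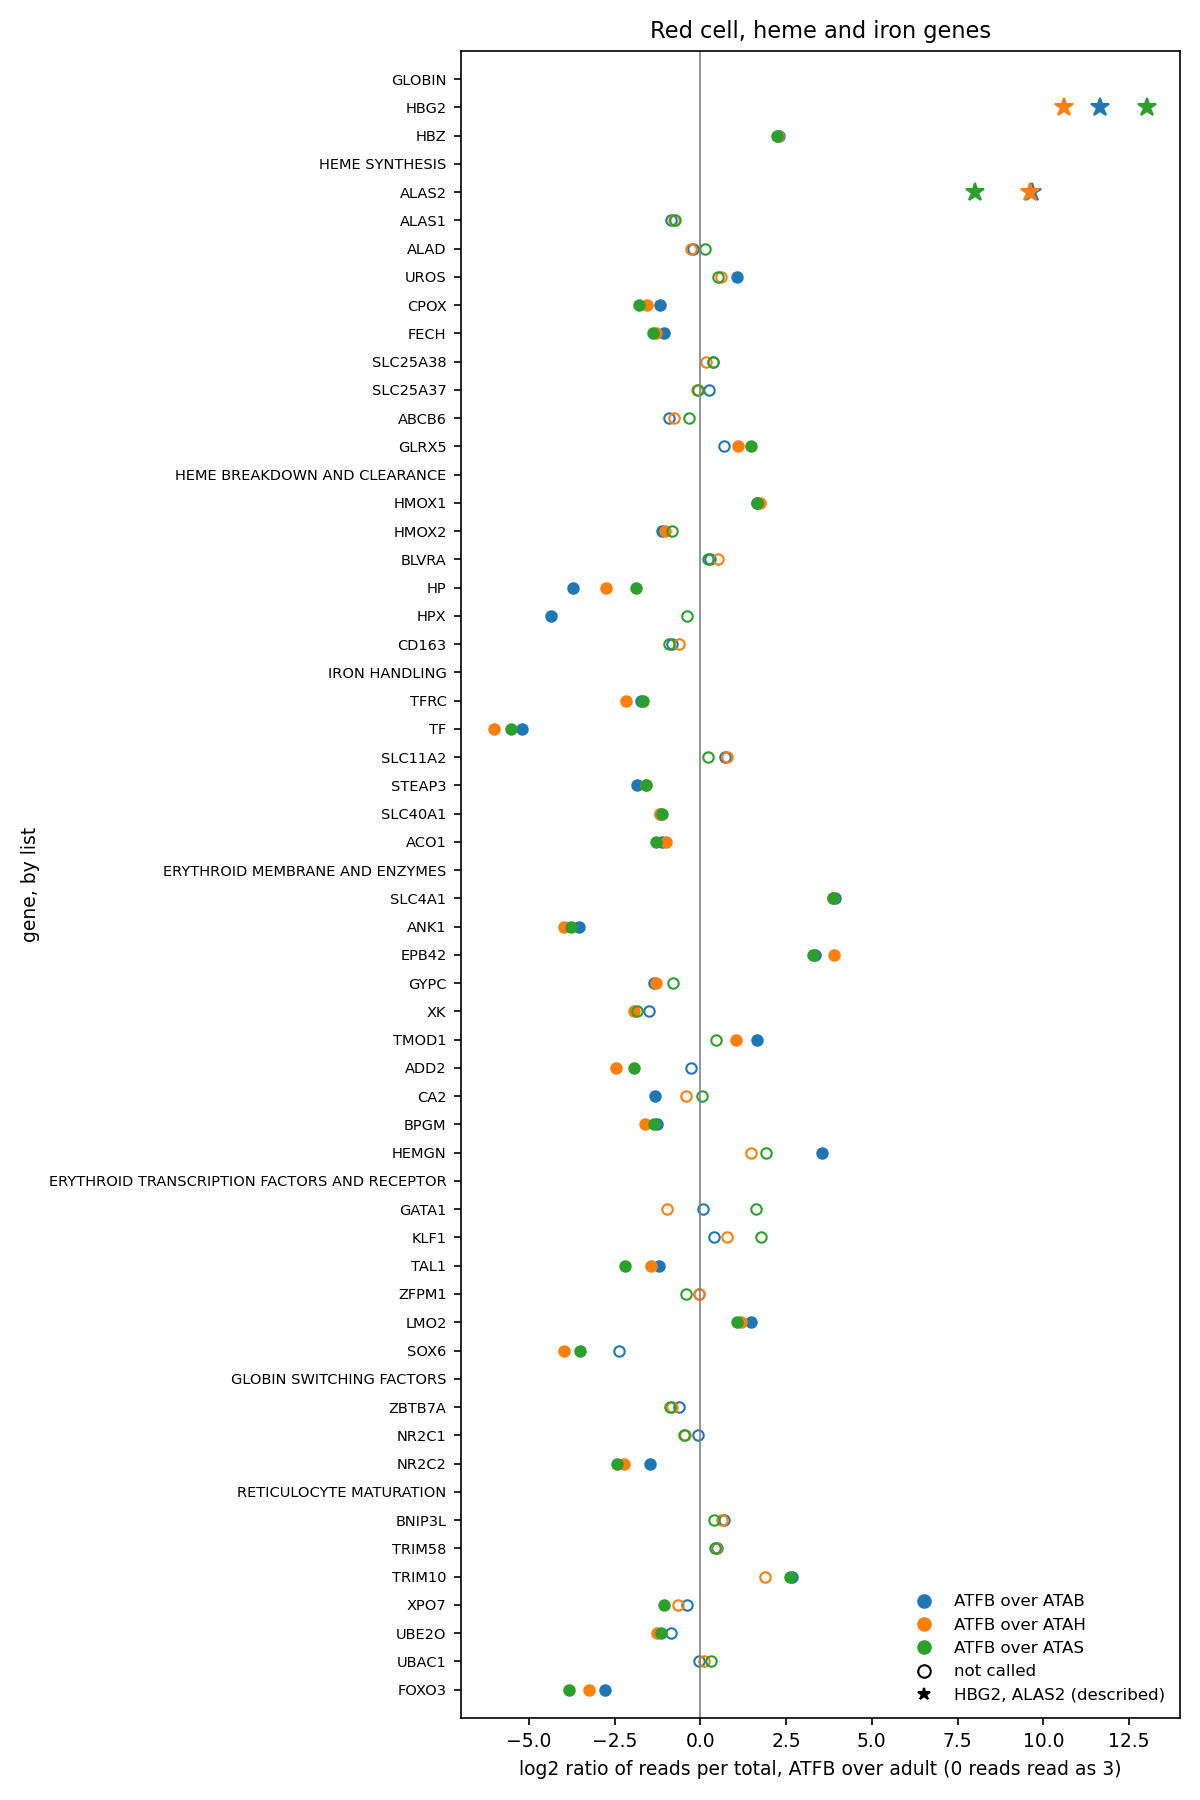
Log2 ratio of reads per library total of ATFB over ATAB, ATAH and ATAS (horizontal axis, 0 reads read as 3) for the genes of 8 red cell, heme and iron lists that the text describes (vertical axis), with filled circles for called ratios, open circles for the rest and stars for HBG2 and ALAS2. HBG2 and ALAS2 stand at 8.02 to 13.02, while SLC4A1 and EPB42 lie between 3.30 and 3.92.

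In edgeR's quasi-likelihood test of the 1 fetal against the 3 adult libraries, whose spread comes from 3 adult pools that differ in sex and castration, and in which the lone fetal library is assumed to vary as they do, 8.4% of 25584 clusters were called higher in ATFB and 9.83% lower at an adjusted p of 0.05 or less. Apart from HBG2 and ALAS2, 55 of the list genes were tested, and 4 were higher and 10 lower. The higher ones were SLC4A1 (adjusted p = 0.0198), EPB42 (0.0303), HMOX1 (0.0142) and LMO2 (0.0185). TF (0.00754), ANK1 (0.00891), FOXO3 (0.0120), TFRC (0.0209), CPOX (0.0233), STEAP3 (0.0270), FECH (0.0279), SLC40A1 (0.0469), NR2C2 (0.0199) and SOX6 (0.0407), a factor of the red cell lineage named after its values were seen, were the lower ones. Without ATAH, HMOX1 (0.0533), LMO2 (0.0695), CPOX (0.0590), FECH (0.0858), SLC40A1 (0.130) and SOX6 (0.0817) were no longer called, and the counts fell to 2 higher and 6 lower.

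Markers of other cells moved between the same libraries. The tissue label was met by the adipocyte markers, of which all 9 named had reads in every library, but their summed level was 1058 RPKM in ATFB and 8629 to 11496 in the adult libraries, and 7 of 9 were called lower in ATFB against all 3 (ADIPOQ, LEP, PLIN1, LIPE, CIDEC, SCD and PNPLA2), of which LEP alone was called throughout with an assumed coefficient of variation of 0.4. With that coefficient no leukocyte, endothelial or liver marker was called throughout. SCD, the stearoyl-CoA desaturase, had 177 RPKM in ATFB and 5557, 5493 and 2544 in ATAB, ATAH and ATAS. Leukocyte markers summed to 102 RPKM in ATFB and 172 to 276 in the adult libraries over 8 named genes, with PTPRC, CD3E and CSF1R called lower throughout, none higher throughout and MPO at 0 in ATFB, ATAB and ATAH. The most abundant, CD68, had 35.8 RPKM in ATFB and 62.9 to 109 in the adult libraries and was called lower against ATAB and ATAS, and CD14 had 53.1 and 54.7 to 81.4 RPKM without a call. Platelet markers, which like red cells come with blood, summed to 37.3 RPKM in ATFB and 13.9 to 21.9 in the adult libraries over 4 named genes, mostly from ITGB3 (33.6 RPKM in ATFB, 7.80 to 17.6 in the adult libraries), which was called higher against ATAH and ATAS. By library totals none was called against all 3, and with ACTB scaling ITGB3 was called higher against all 3. ITGA2B, the partner of ITGB3 on platelets, had 2.87 RPKM in ATFB and more in each adult library, up to 5.23. TUBB1 had 11, 8, 16 and 4 reads, and neither ITGA2B nor TUBB1 was called. The order of the platelet sums thus depends on ITGB3 and gives no direction for the list. Endothelial markers summed to 547 RPKM in ATFB and 387 to 721 in the adult libraries, with VWF (22.3 RPKM in ATFB, 95.8 to 183 in the adult libraries) called lower throughout. EMCN and CDH5 were named after their values were seen. EMCN had 110 RPKM in ATFB and 30.4, 47.5 and 59.3 in ATAB, ATAH and ATAS and was called higher against ATAB and ATAH, and against all 3 with TMM factors or ACTB scaling. CDH5 had 24.1 RPKM in ATFB and 36.3, 53.9 and 68.4 in the adult libraries and was called lower against ATAH and ATAS. CLDN5 had 255 RPKM in ATFB and at most 212 in the adult libraries and was called higher against ATAB, and PECAM1 had 106 and 95.9 to 150 RPKM without a call. Liver markers, which bear on the fetal liver as a site of red cell formation, summed to 1.31 RPKM in ATFB and 0.528 to 1.26 in the adult libraries. This sum covers only 4 of the 8 listed genes, since AFP, APOA1, TTR and FGA had no named cluster. AHSG, fetuin-A, had 15 reads in ATFB and 0 in each adult library and was called higher against all 3. ALB had 16, 14, 27 and 17 reads, without a call, and FGB had 2, 8, 21 and 0 in the 4 libraries and was called lower against ATAH. Muscle markers (ACTA1, CKM and MYH2) summed to 3.37 RPKM in ATFB and 1.43 to 4.83 in the adult libraries, and none was called against all 3. The part of these shifts in the levels of HBG2 and ALAS2 was not tested.

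**Figure D5:**
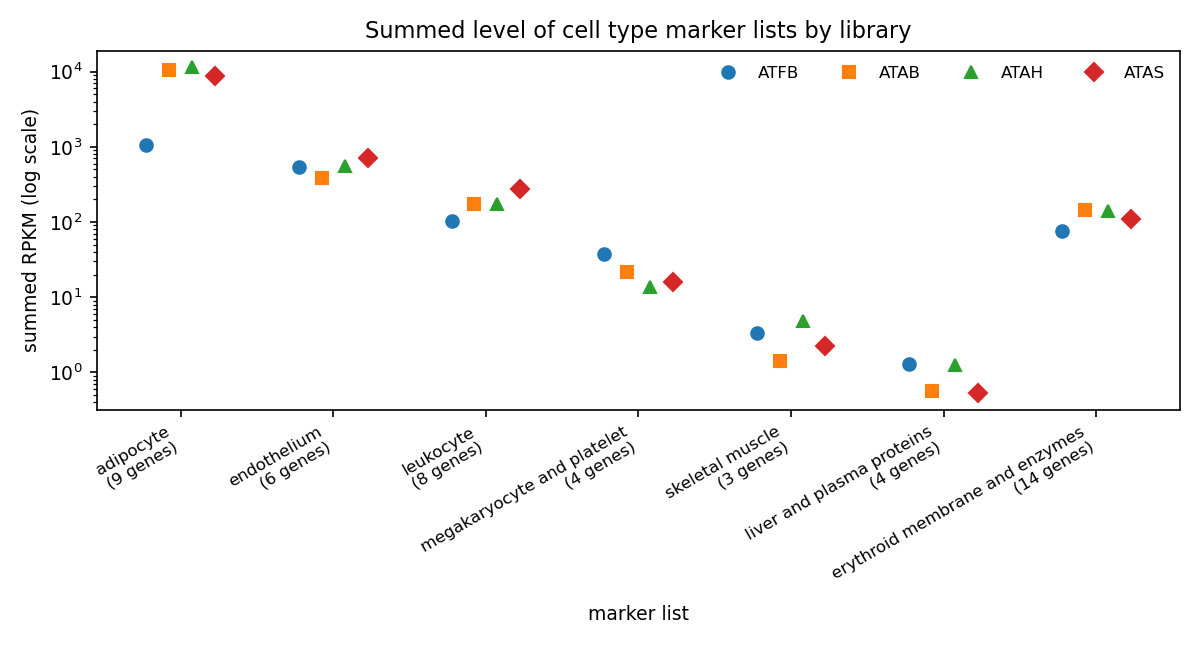
Summed RPKM (vertical axis, log scale) of the named genes of 7 marker lists (horizontal axis) in each library. The adipocyte sum is 1058 RPKM in ATFB and 8629 RPKM or more in the adult libraries. The sum of red cell membrane and enzyme genes is 75.9 RPKM in ATFB and 110.1 to 145 RPKM in the adult libraries. Without GYPC that sum is 27.9 RPKM in ATFB and 22.9 to 26.1 RPKM in the adult libraries. TMOD1 holds 16.9 RPKM of it in ATFB and 5.36 to 12.4 RPKM in the adult libraries.

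The named genes whose pattern over the 4 libraries was nearest to HBG2 were, in order, KRT13, ALAS2, COL2A1, CDH7 and KRT14, and those nearest to ALAS2 were HBG2, KRT13, COL2A1, CDH7 and KRT14. The measure was the summed absolute difference of each library's share of the gene's summed RPKM, over 4 libraries and 3799 named clusters with at least 100 reads. HBG2 and ALAS2 were 0.00314 apart, KRT13 was 0.00189 from HBG2 and 0.00503 from ALAS2, and KRT14 was 0.0507 and 0.0494 away. HBG2 had 99.91% and ALAS2 99.75% of its summed RPKM in ATFB, and 2 and 3 of the 18671 clusters with at least 100 reads had a larger share. KRT13, an epithelial keratin, had 182 reads in ATFB and 0 in each adult library. COL2A1, a cartilage collagen, had 1459 reads in ATFB and 2, 14 and 10 in ATAB, ATAH and ATAS, and CDH7, a cadherin, had 186 and 0, 4 and 0. KRT14, a keratin of basal epithelium, had 147 and 0, 2 and 2. With 1 fetal library, any gene read almost only in ATFB ranks as near by this measure.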

How the data were processed

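Per the labels and the study's methods, RNA of pooled fat was sequenced on the Illumina platform (CASAVA is named in the submitters' processing notes), and the authors removed redundant and low-quality reads and aligned the rest with SOAPaligner. The deposited counts are reads that matched once on each UniGene cluster, without normalization. The authors' RPKM divides them by length and library total, and the deposited coverage is the percent of each sequence with a read. Whether counting used strand is not given in the sources used here. The deposited sequence file pairs clusters with descriptions and accessions, from which 5220 clusters got a symbol (5075 symbols), with help of the RefSeq gene table. Of several clusters with 1 symbol, that with the most reads stood for the gene. Chromosome positions were not used, as the table's build is not the authors' (bosTau7).

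The members, lists and tests were chosen with earlier results of these data known. Named in the text are HBG2 and ALAS2, all named genes of the globin, heme synthesis and breakdown lists (except a gene that is not reported here), and of other lists the 3 with the highest summed RPKM and those called the same way in all 3 comparisons, plus the 5 genes nearest in pattern to each member. Outside this rule, EMCN, CDH5, MPO, HEMGN, ADD2, XK, GATA1, KLF1, SOX6, SLC11A2, TRIM10, TRIM58 and UBE2O were named after their values were seen.

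Ratios used library totals, and 0 reads were read as 3. Calls used scipy 1.17.1 (exact binomial, Benjamini-Hochberg over all clusters with a read, FDR of 0.001 or less, at least 2-fold). The stage test used edgeR 4.0.16 (TMM, filterByExpr, adjusted p of 0.05 or less) in R 4.3.3, with DESeq2 1.42.0 as an alternative. Scripts were checked on simulated counts. Globin-like clusters were found with BLAST 2.17.0 (tblastx, E of 1e-05 or less) between the deposited sequences, in place of the protein table planned. Read length (90 bases) was taken from clusters with 1 read. Counted reads were 15.3 M, 16.1 M, 15.6 M and 15.6 M in ATFB, ATAB, ATAH and ATAS, and 3 reads on 1 kb are 0.186 to 0.196 RPKM. Each group is 1 library, so p-values between 2 libraries measure counting error only. Alternatives were other scalings, a minimum of 10 reads, edgeR's exact test with an assumed coefficient of variation of 0.4, summed clusters and leaving out each adult library.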

Additional observations from a re-analysis of the deposited data

How the results depend on the processing

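HBG2 and ALAS2 stayed higher in ATFB under each scaling tried. Their log2 ratios to ATAB and ATAH stayed within the counting intervals. The bound of HBG2 against ATAS moved from 13.02 to 13.14 with TMM factors, 13.18 with DESeq2 size factors, 13.28 with ACTB as the scaling and 14.61 with 0 read as 1 read, and that of ALAS2 from 8.02 to 8.14, 8.18, 8.27 and 9.60. ACTB scaling shifted every log2 ratio of ATFB by 0.24, 0.27 and 0.25 against ATAB, ATAH and ATAS, and TMM factors by -0.18, 0.10 and 0.12. The share of calls that were higher in ATFB was therefore 58.0%, 41.8% and 40.9% by totals, 70.8%, 57.7% and 54.3% by ACTB and 46.8%, 47.4% and 47.0% by TMM.

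An assumed coefficient of variation of 0.4 left 184, 229 and 278 clusters called of 7808, 8320 and 9076, since it adds spread between libraries that the binomial test lacks. It left 0 of the red cell, heme and iron list genes higher in each comparison (8, 7 and 7 by the binomial test) and 2, 1 and 1 lower. ACTB scaling left 10 list genes lower against ATAB and TMM factors 22, in place of 17. No list gene that had been called changed direction under any alternative.

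In the test of stage, 4664 clusters were called, and 2325 to 7121 when each adult library was left out (2325 without ATAH, 7121 without ATAB). The list genes called then numbered 2 to 5 higher and 6 to 14 lower. No paired analysis was possible because each group had 1 library. Depth limits the adult levels of ALAS2, which rest on 1 read or none.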
